A study of Mus musculus with 4 samples.

Results

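The 10 genes described here mark the alveolar type 1 cell, the thin epithelial cell that covers most of the gas-exchange surface of the lung. They are Ager, Pdpn, Aqp5, Clic5, Cav1, Emp2, Akap5, Hopx, Rtkn2 and Igfbp2, chosen by symbol from the 24391 genes of the deposited count files. All 10 were present and all 10 passed the filter on low counts, among 16001 genes tested. RNA was sequenced from 4 mouse lung tumour samples in 2 groups of 2. The group labelled K-Ras carried K-RasLSL-G12D, an oncogenic allele that is silent until Cre removes a stop cassette. The group labelled K-Ras Mll4-/- carried the same allele together with Mll4fl/fl, floxed alleles of the gene now named Kmt2d, which encodes a histone methyltransferase of enhancers. The Cre driver, the strain, the age of the mice and the number of mice per sample are not given in the sources used here. Tumours were dissociated and depleted of CD45-bearing leukocytes before RNA extraction, so the samples held tumour cells together with stromal and remaining normal cells.

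As background, alveolar type 1 cells form during development and after injury, when they arise from the cuboidal, surfactant-producing alveolar type 2 cells. The transition flattens the cell, switches off surfactant genes and requires NKX2-1 together with the Hippo pathway effectors YAP and TAZ. K-Ras lung tumours in mice arise largely from alveolar type 2 and airway cells. None of the 10 genes is fully specific in whole tissue: Cav1 is abundant in endothelial cells, and Pdpn also marks lymphatic endothelium and mesothelium.

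None of the 10 genes was called as different between K-Ras and K-Ras Mll4-/- tumours, and their levels did not move in one direction. Aqp5, Akap5, Rtkn2 and Emp2 had both K-Ras Mll4-/- samples above both K-Ras samples, with group means 1.80 to 2.36 times those of K-Ras tumours. Ager, Igfbp2 and Cav1 were the other way round, with Ager at 0.468 of its K-Ras mean and Cav1 separated by a narrow margin. Hopx, Clic5 and Pdpn overlapped between the groups. At an adjusted p under 0.05 the edgeR quasi-likelihood test called 0 of the 10, against 0.0375% of all genes tested. At an unadjusted p under 0.05 it gave 5 (21.8% of all genes), of which 4 were higher (11.4% of all genes) and 1 was lower (10.4%). DESeq2 and the edgeR likelihood ratio test each called 3 of the 10, namely Ager, Aqp5 and Akap5, against 10.4% and 9.39% of all genes, and limma-voom called 0. The groups did not overlap for 7 of the 10, a share near the 58.3% of all genes (29.9% higher, 28.5% lower).

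**Figure D1:**
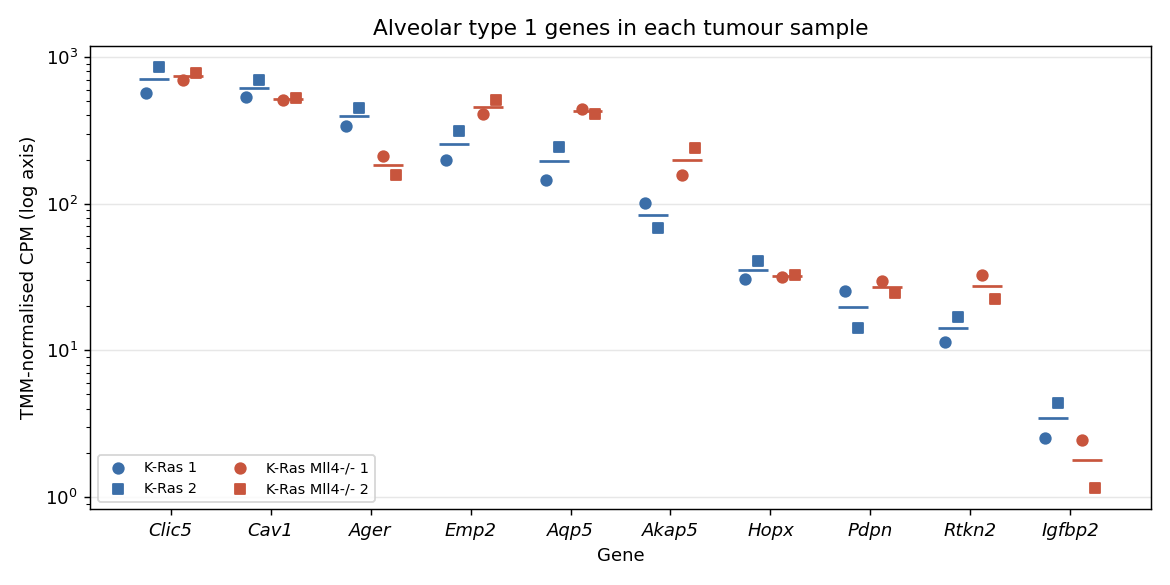
CPM (reads of a gene relative to the TMM-scaled library size, on a log axis) of the 10 alveolar type 1 genes in each of the 4 samples; points are samples and short lines are group means. Both K-Ras Mll4-/- points lie above both K-Ras points for Aqp5, Akap5, Rtkn2 and Emp2, and below them for Ager, Igfbp2 and Cav1.

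Promoters of the genes with the widest differences are shown to set the lower gene, Ager, beside the higher genes Akap5 and Aqp5. Each is a RefSeq window of 300 bases on GRCm38.p6, from 250 bases before the annotated start to 50 bases from it on. The letters run 5′ to 3′ in the direction of the gene, with capitals marking CG dinucleotides.
Ager, chr17:34597600-34597899, plus strand: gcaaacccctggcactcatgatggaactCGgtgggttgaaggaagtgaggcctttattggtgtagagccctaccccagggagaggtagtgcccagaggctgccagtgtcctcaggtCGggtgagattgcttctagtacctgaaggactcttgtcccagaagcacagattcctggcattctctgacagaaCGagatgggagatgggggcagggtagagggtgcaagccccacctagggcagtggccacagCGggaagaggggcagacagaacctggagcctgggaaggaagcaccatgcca
Akap5, chr12:76324641-76324940, plus strand: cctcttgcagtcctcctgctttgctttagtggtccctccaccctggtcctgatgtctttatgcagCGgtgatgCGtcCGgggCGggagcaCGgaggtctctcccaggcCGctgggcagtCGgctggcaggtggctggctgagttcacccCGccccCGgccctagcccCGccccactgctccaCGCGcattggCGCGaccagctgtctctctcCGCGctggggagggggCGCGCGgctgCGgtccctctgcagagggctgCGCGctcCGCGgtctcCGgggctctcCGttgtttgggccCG
Aqp5, chr15:99590778-99591077, plus strand: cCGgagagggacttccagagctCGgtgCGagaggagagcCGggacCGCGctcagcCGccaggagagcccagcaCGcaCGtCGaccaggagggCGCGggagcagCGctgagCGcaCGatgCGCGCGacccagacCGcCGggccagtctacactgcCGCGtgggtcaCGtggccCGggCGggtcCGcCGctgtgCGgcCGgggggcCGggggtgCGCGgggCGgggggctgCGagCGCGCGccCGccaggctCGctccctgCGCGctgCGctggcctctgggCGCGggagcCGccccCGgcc

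The Ager window held 4 CG dinucleotides, below the median of 7 over 32851 mouse promoter windows of the same length. The Akap5 window held 27 and the Aqp5 window 46, more than 84.5% and 98.4% of all windows. Of the other lower genes, Igfbp2 held 18 and 14 in its separate windows and Cav1 13 and 16, while Emp2, a higher gene, held 16. The TEAD motif GGAATG was in none of the windows of the 9 genes with an entry, on either strand, and in 14.7% of all windows. The NKX2-1 motif CACTNNAG was in the Akap5 window and in 1 window each of Hopx, Pdpn and Igfbp2, on one or the other strand, and in 16% of all windows. These are matches of letters only, and the motifs were picked after the expression values were known.

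The samples held between 26683033 and 36677987 reads in genes, and the 10 genes took 0.206% to 0.266% of them. Counts of the 10 genes ranged from 37 (Igfbp2) to 30956 (Clic5), so each of their values lies above the 3 reads taken as a detection floor, 0.083 to 0.114 CPM. Some genes of the other lists lie at or under it. Kmt2d was at 395 and 526 CPM in K-Ras and 367 and 317 CPM in K-Ras Mll4-/- samples (log2 fold change -0.43, edgeR adjusted p = 0.302); totals per gene do not resolve a deleted exon, so its loss rests on the labels. Some samples stood apart in cell content. K-Ras sample 2 had a summed level of the 6 ciliated cell markers of 768 CPM against 77.2 to 136 CPM in the other samples, and of the 6 club cell markers of 4801 against 748 to 1177 CPM. K-Ras sample 1 had a summed fibroblast marker level of 2538 CPM against 872 to 1183 CPM. The labels do not say whether the samples came from separate mice, so p-values measure the spread between these samples only. In bulk RNA, fewer cells of a type and less RNA per cell cannot be told apart.

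Levels were first compared between genes per kilobase of the longest coding transcript. All annotated exons of a gene together can be longer. They span 8644 bases against 3440 for Emp2, 8782 against 5862 for Clic5 and 2141 against 1370 for Ager, but 1817 by either length for Pdpn. The order and overlaps between genes given here therefore hold for the transcript length only, and other lengths were not tested. In K-Ras tumours Ager had the highest level per length, 287 ± 55.9 CPM per kb (SD, n = 2), followed by Cav1 at 224 ± 40.4, and their ranges overlapped. Clic5, Aqp5 and Emp2 came next, at 121, 108 and 74.1 CPM per kb, each overlapping its neighbour. Hopx stood apart at 28.2, above Akap5 and Pdpn at 12.6 and 10.9, which overlapped. Rtkn2 and Igfbp2 were lowest and overlapped, at 3.57 and 2.65 CPM per kb. In K-Ras Mll4-/- tumours the order at the top differed. Aqp5 was first at 238 ± 13.5 CPM per kb and Cav1 second at 189 ± 2.92, without overlap. Ager came next at 135 ± 27.8, and its range overlapped that of Emp2, at 134, which overlapped that of Clic5, at 126 CPM per kb. Akap5 (29.7) and Hopx (25.6) overlapped, and Pdpn, Rtkn2 and Igfbp2 followed without overlap.

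Among the cell-surface markers, Ager encodes RAGE, a receptor for advanced glycation end products that is most abundant in the lung, at the basal membrane of type 1 cells. Its level was 340 and 448 CPM in the K-Ras samples and 211 and 157 CPM in the K-Ras Mll4-/- samples. Both K-Ras Mll4-/- samples lay below both K-Ras samples. The means were 394 ± 76.6 and 184 ± 38.1 CPM (SD, n = 2 each). On the log2 scale the difference was -1.10, with an SE of 0.24 and an edgeR quasi-likelihood adjusted p of 0.156. The difference lay between -1.32 and -0.89 when each sample was left out in turn.

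Levels of RAGE ligands were mixed. Of 6 ligand genes, 0 were called and 1, S100a6, had an unadjusted p under 0.05: it was at 95.8 and 113 CPM in K-Ras and 319 and 388 CPM in K-Ras Mll4-/- samples (log2 fold change 1.76, edgeR adjusted p = 0.116). The alarmins S100a8 and S100a9 had log2 fold changes of -1.41 and -1.44, with 69.2 and 79.2 CPM in K-Ras sample 1 and 15.5 to 23.3 CPM in the other samples. Hmgb1, the classical nuclear ligand, differed by 0.07 on the log2 scale.

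Pdpn encodes podoplanin, a mucin-like glycoprotein of the apical membrane that links to the actin skeleton through ezrin and moesin. It was at 25.3 and 14.3 CPM in K-Ras and 29.7 and 24.7 CPM in K-Ras Mll4-/- samples. The groups overlapped, and K-Ras sample 2 was the low sample. The log2 difference was 0.46 with an SE of 0.32 (edgeR adjusted p = 0.445), and it was 0.09 without K-Ras sample 2 and 0.93 without K-Ras sample 1. The lymphatic endothelial markers, which share Pdpn with type 1 cells, had negative log2 fold changes in all 4 genes tested. Their summed level was 313 and 383 CPM in K-Ras and 221 and 182 CPM in K-Ras Mll4-/- samples. Ccl21a had 0 counted reads in all samples, where reads aligned to several places were not counted. Of the podoplanin partners, Cd44 had an unadjusted p under 0.05 (log2 fold change 0.67), and Ezr, Msn and Rdx were at 0.61, 0.06 and -0.17.

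Aqp5 and Clic5 serve water and ion transport. Aqp5, the apical water channel of type 1 cells, was at 144 and 245 CPM in K-Ras and 445 and 411 CPM in K-Ras Mll4-/- samples. Both K-Ras Mll4-/- samples were above both K-Ras samples, and the K-Ras samples lay further apart than the K-Ras Mll4-/- samples. The means were 195 ± 70.9 and 428 ± 24.3 CPM (SD, n = 2 each). On the log2 scale the difference was 1.14, with an SE of 0.29 and an edgeR adjusted p of 0.175. It was 0.81 without K-Ras sample 1 and 1.56 without K-Ras sample 2, and 1.41 with offsets for GC content and transcript length. Aqp1, the endothelial aquaporin, was at 954 and 1112 CPM in K-Ras and 714 and 517 CPM in K-Ras Mll4-/- samples (log2 fold change -0.75, edgeR adjusted p = 0.196). The other aquaporins tested reached at most 21.2 CPM (Aqp4), and none was called. Aqp2, Aqp3 and Aqp4 were at 0.74, 0.83 and 0.34 on the log2 scale and Aqp9 and Aqp11 at -0.95 and -0.93, and of these 5 Aqp3 alone had an unadjusted p under 0.05.

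Clic5 encodes a chloride intracellular channel family protein bound to ezrin and cortical actin. It was at 566 and 857 CPM in K-Ras and 696 and 785 CPM in K-Ras Mll4-/- samples. The K-Ras Mll4-/- values lay between the K-Ras values. The log2 difference was 0.06 with an SE of 0.26 (edgeR adjusted p = 0.916). Its sign turned without K-Ras sample 1 (-0.21) or without K-Ras Mll4-/- sample 2 (-0.04), and it was 0.37 without K-Ras sample 2. The family members Clic1, Clic3, Clic4 and Clic6 had log2 fold changes of 0.24, 0.16, -0.33 and -1.003, none called.

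Cav1, Emp2 and Akap5 organise membranes and signalling. Cav1, the main structural protein of caveolae, was at 538 and 695 CPM in K-Ras and 513 and 524 CPM in K-Ras Mll4-/- samples. The groups did not overlap, by a narrow margin between K-Ras sample 1 and K-Ras Mll4-/- sample 2. The log2 difference was -0.25 with an SE of 0.20 (edgeR adjusted p = 0.494), and it was -0.07 without K-Ras sample 2 and -0.42 without K-Ras sample 1. Of 8 caveola genes tested, Cav1 included, 0 were called and 1 had an unadjusted p under 0.05. That gene was Sdpr, which encodes cavin-2, at 328 and 377 CPM in K-Ras and 251 and 200 CPM in K-Ras Mll4-/- samples (log2 fold change -0.65). Cav2 and Pacsin2 were at 0.32 and 0.37 on the log2 scale, and Ptrf, the gene of cavin-1, at -0.17.

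Emp2 encodes a tetraspan protein of the PMP22 family that binds integrins and caveolins. It was at 198 and 312 CPM in K-Ras and 410 and 510 CPM in K-Ras Mll4-/- samples. The lower K-Ras Mll4-/- value was above the higher K-Ras value. The means were 255 ± 81.0 and 460 ± 70.6 CPM (SD, n = 2 each). On the log2 scale the difference was 0.85, with an SE of 0.28 and an edgeR adjusted p of 0.206. It lay between 0.56 and 1.20 when each sample was left out in turn. Emp1, a paralog, was at 359 and 470 CPM in K-Ras and 671 and 1032 CPM in K-Ras Mll4-/- samples (log2 fold change 1.04, edgeR adjusted p = 0.181). Emp3 and Pmp22 were at 0.01 and -0.62 on the log2 scale.

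Akap5 encodes an anchoring protein that holds protein kinase A and the phosphatase calcineurin near the plasma membrane. It was at 100.4 and 68.3 CPM in K-Ras and 157 and 240 CPM in K-Ras Mll4-/- samples. K-Ras sample 2 was lowest and K-Ras Mll4-/- sample 2 highest, without overlap of the groups. The means were 84.3 ± 22.7 and 199 ± 59.1 CPM (SD, n = 2 each). On the log2 scale the difference was 1.24, with an SE of 0.30 and an edgeR adjusted p of 0.168. The log2 difference was above that of 96.5% of all genes tested. It lay between 0.89 and 1.54 when each sample was left out. Of 8 genes of Akap5 partners, 0 were called; Ppp3ca, a calcineurin catalytic subunit, had an unadjusted p under 0.05 with a log2 fold change of 0.53. Prkar2b, a regulatory subunit of protein kinase A, was at -0.51.

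Hopx, Rtkn2 and Igfbp2 act in transcription and signalling. Hopx encodes an atypical homeodomain protein that lacks DNA binding and acts through partners such as SRF. It was at 30.8 and 40.4 CPM in K-Ras and 31.8 and 32.8 CPM in K-Ras Mll4-/- samples. The K-Ras Mll4-/- values lay between the K-Ras values. The log2 difference was -0.14 with an SE of 0.18 (edgeR adjusted p = 0.668), and it was 0.06 without K-Ras sample 2 and -0.32 without K-Ras sample 1. In GENCODE M21 the antisense gene Hopxos covers 27.2% of the Hopx exon bases. The strand setting of the counting is not given in the sources used here, so reads of the pair may not be told apart. The partners Srf and Hdac2 were at 0.14 and 0.28 on the log2 scale.

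Rtkn2, the gene of rhotekin-2, a signalling protein, was at 11.5 and 16.8 CPM in K-Ras and 32.8 and 22.4 CPM in K-Ras Mll4-/- samples. The groups did not overlap, and K-Ras sample 2 and K-Ras Mll4-/- sample 2 were the nearest pair across them. The means were 14.2 ± 3.78 and 27.6 ± 7.40 CPM (SD, n = 2 each). On the log2 scale the difference was 0.96, with an SE of 0.30 and an edgeR adjusted p of 0.193. An antisense gene covers 3.89% of its exon bases. Its paralog Rtkn was at 37.9 and 45.6 CPM in K-Ras and 51.1 and 60.4 CPM in K-Ras Mll4-/- samples (log2 fold change 0.42).

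Igfbp2 encodes an insulin-like growth factor binding protein that in mouse marks the late, fully differentiated type 1 state. It was at 2.52 and 4.40 CPM in K-Ras and 2.44 and 1.15 CPM in K-Ras Mll4-/- samples, from 77 and 159 reads against 64 and 37. Samples 1 of the groups were nearly equal, so the separation is narrow. The log2 difference was -0.96 with an SE of 0.53 (edgeR adjusted p = 0.352), from -1.58 without K-Ras Mll4-/- sample 1 to -0.51 without K-Ras Mll4-/- sample 2. Of 10 insulin-like growth factor axis genes tested, Igfbp2 included, 9 had negative log2 fold changes. Of these 10, 0 were called and 3 had an unadjusted p under 0.05, all lower. Igfbp4 and Igfbp5 were at -0.93 (edgeR adjusted p = 0.153) and -0.79 (edgeR adjusted p = 0.147). Igfbp7 and Igf2r, the most abundant of the list, were at -0.26 and 0.01.

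**Figure D2:**
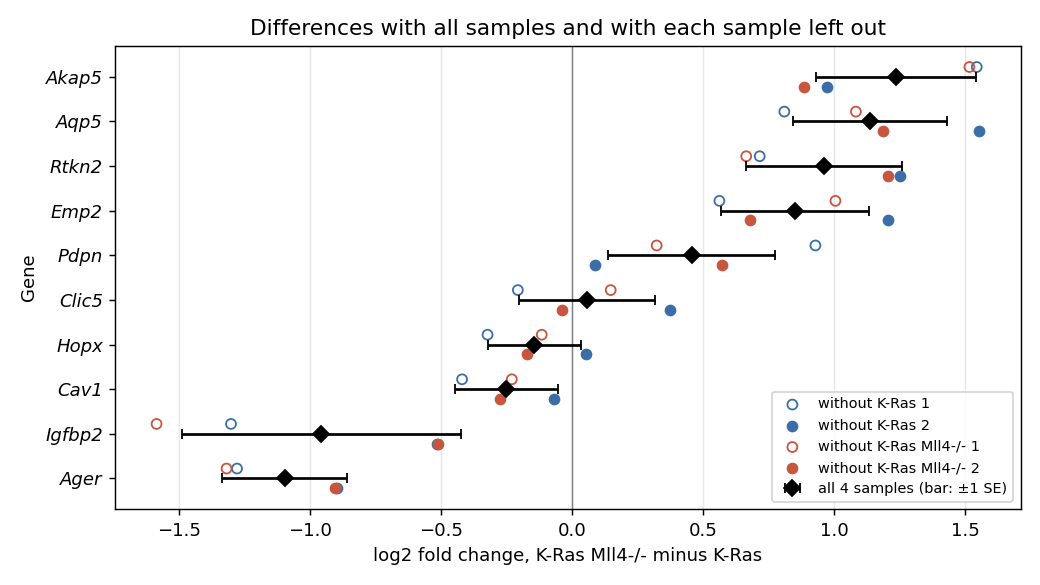
Log2 fold change (K-Ras Mll4-/- minus K-Ras) of each of the 10 genes with all 4 samples (diamond, bar ±1 SE) and with each sample left out in turn (circles). Akap5, Aqp5, Rtkn2, Emp2 and Pdpn stay above 0 and Ager, Igfbp2 and Cav1 below 0 in every fit, while Clic5 and Hopx cross 0.

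The median log2 fold change of the 10 genes was 0.26, against -0.01 for all genes tested, and it ran from -1.10 to 1.24. A further list of 21 type 1 genes was similarly split, with 13 positive and 8 negative values, a median of 0.10, 0 called, 5 higher and 2 lower at an unadjusted p under 0.05. Krt7, a simple-epithelial keratin, was highest, at 135 and 270.1 CPM in K-Ras and 1105 and 1199 CPM in K-Ras Mll4-/- samples (log2 fold change 2.51, edgeR adjusted p = 0.144). Ndnf, a secreted neurotrophic factor gene, followed at 1.69 (edgeR adjusted p = 0.147). Sec14l3 was lowest at -1.84, and its 626 CPM in K-Ras sample 2 stood against 106 to 140.1 CPM elsewhere. That sample also had the high airway marker levels given above. The part of airway cells in the Sec14l3 value was not tested. Timp3 and Lmo7, the most abundant of the list, were at 0.22 and 1.19.

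Regulators of the type 1 state were compared next. Of 14 genes, 0 were called and 3 had an unadjusted p under 0.05, all higher. These were Bmp4, a ligand of the BMP pathway, at 44.5 and 65.4 CPM in K-Ras and 166 and 321 CPM in K-Ras Mll4-/- samples (log2 fold change 2.15, edgeR adjusted p = 0.147), Klf5 (1.56, edgeR adjusted p = 0.186) and Gata6 (1.02, edgeR adjusted p = 0.157). Nkx2-1, Yap1 and Wwtr1, the last encoding TAZ, were at 0.06, 0.14 and -0.07; the first 2 are named because of their role, after the values were seen. Of 10 YAP and TAZ target genes, 5 were positive and 5 negative, with a median of 0.04. Ctgf was at 1.15 and Amotl1 at -0.58, each with an unadjusted p under 0.05.

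The 10 genes were then set beside markers of other cells. The 12 alveolar type 2 markers had a median log2 fold change of -0.21, 0 called and 0 with an unadjusted p under 0.05. Their summed level was 24263 and 37204 CPM in K-Ras and 31327 and 31229 CPM in K-Ras Mll4-/- samples. Sftpb, a surfactant protein gene, had the largest value, 1.03, and Sftpc, the most abundant on average, was at -0.30. The 7 pan-epithelial markers all had positive log2 fold changes (0.87 to 1.31, median 1.10), each with an unadjusted p under 0.05 and 0 called. Their summed level was 559 and 906 CPM in K-Ras and 1274 and 1820 CPM in K-Ras Mll4-/- samples. The 6 transitional alveolar markers, which label cells between type 2 and type 1, were positive in 5 and 0 were called. Krt18, Krt19, Krt8, Lgals3 and Sfn were at 2.07, 1.89, 1.41, 1.04 and 0.85, and Cldn4 was at -0.88.

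Stromal markers lay on the other side. Of 10 endothelial markers 9 had negative log2 fold changes, with a median of -0.76, 0 called and 8 lower at an unadjusted p under 0.05. Their summed level was 7070 and 7404 CPM in K-Ras and 5024 and 4031 CPM in K-Ras Mll4-/- samples, and no endothelial marker was at 0. Fibroblast markers had a median of -0.90 (7 of 8 negative, 0 called), and pericyte and smooth muscle markers one of -0.28 (4 of 6 negative, 0 called). The leukocyte marker sum was 762 and 357 CPM in K-Ras and 640 and 384 CPM in K-Ras Mll4-/- samples. Among airway epithelial markers, club and ciliated genes were negative in 6 of 6 each, with medians of -1.49 and -2.33 and 0 called. Both sums were highest in K-Ras sample 2. The club sum was 1177 and 4801 CPM in K-Ras and 1004 and 748 CPM in K-Ras Mll4-/- samples. The ciliated sum was 136 and 768 CPM in K-Ras and 77.2 and 80.1 CPM in K-Ras Mll4-/- samples. Both K-Ras Mll4-/- samples were lower for 3 of 6 club and 6 of 6 ciliated genes (28.5% of all genes). Basal markers were positive in 4 of 4 and 0 were called. Trp63 was at 1.60 and 4.48 CPM in K-Ras and 18.5 and 88.6 CPM in K-Ras Mll4-/- samples. Krt14 was at 0 and 0.055 CPM in K-Ras, under the detection floor, and 7.05 and 34.7 CPM in K-Ras Mll4-/- samples. Krt5 and Ngfr, at 1.30 and 0.05 on the log2 scale, overlapped between the groups. Of the 3 mesothelial markers tested, 1 was positive and 2 were negative, with a median of -0.40 and 0 called. Msln was at 3.47, Upk1b at -1.19 and Lrrn4 at -0.40, and Lrrn4, Upk3b and Wt1 were under 1 CPM in every sample. Cav1 is shared with endothelium. The values of Ager, Igfbp2, Cav1 and Hopx had the sign of most endothelial markers, which the fibroblast, club and ciliated medians shared. Those of Aqp5, Akap5, Rtkn2, Emp2, Pdpn and Clic5 had that of the pan-epithelial markers, which most transitional and all basal markers shared. A sign alone does not tell these lists apart. The part of cell content in these values was not tested.

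**Figure D3:**
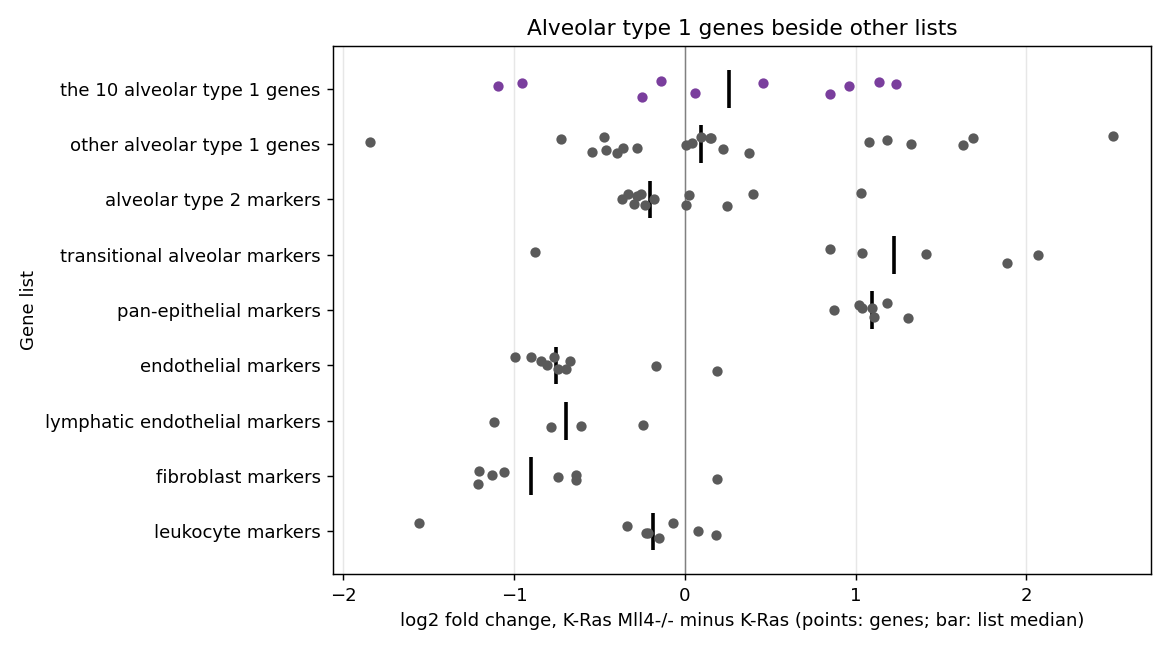
Log2 fold changes (K-Ras Mll4-/- minus K-Ras) of single genes (points) in each list, with the list median as a bar. The 10 alveolar type 1 genes run from -1.10 to 1.24, across the pan-epithelial markers (0.87 to 1.31) and most endothelial markers (median -0.76).

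Dividing each gene by the summed level of a marker list gave its amount relative to those marker transcripts. The sum of a few markers is not a measure of the RNA or number of the cells they label. Relative to the alveolar type 2 markers, which moved the median gene by -0.10 on the log2 scale, Aqp5, Akap5, Rtkn2 and Emp2 were again higher in both K-Ras Mll4-/- samples, 4 of 10 against 14.8% of all genes. Ager, Hopx, Igfbp2 and Cav1 were lower in both, 4 of 10 against 23.5%. Aqp5 was 0.596% and 0.658% of the type 2 sum in K-Ras and 1.42% and 1.32% in K-Ras Mll4-/- samples. Ager was 1.4% and 1.20% in K-Ras and 0.675% and 0.504% in K-Ras Mll4-/- samples.

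Relative to the pan-epithelial markers the picture differed, and this divisor moved the median gene by -1.13 on the log2 scale. None of the 10 genes was higher in both K-Ras Mll4-/- samples, against 2.2% of all genes, and 6 were lower, against 79.9%. Aqp5 was 25.8% and 27.0% of that sum in K-Ras and 35.0% and 22.6% in K-Ras Mll4-/- samples, so the groups overlapped. Akap5 and Rtkn2 overlapped as well, and Emp2 was lower, at 35.4% and 34.5% against 32.2% and 28.0%. Ager was at 60.7% and 49.4% in K-Ras and 16.6% and 8.65% in K-Ras Mll4-/- samples, a log2 ratio of means of -2.13. Relative to the endothelial markers, which moved the median gene by 0.68 on the log2 scale, 8 of 10 were higher (69.1% of all genes) and Ager alone was lower (5.13% of all genes). Ager was there 4.80% and 6.05% in K-Ras and 4.21% and 3.91% in K-Ras Mll4-/- samples.

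**Figure D4:**
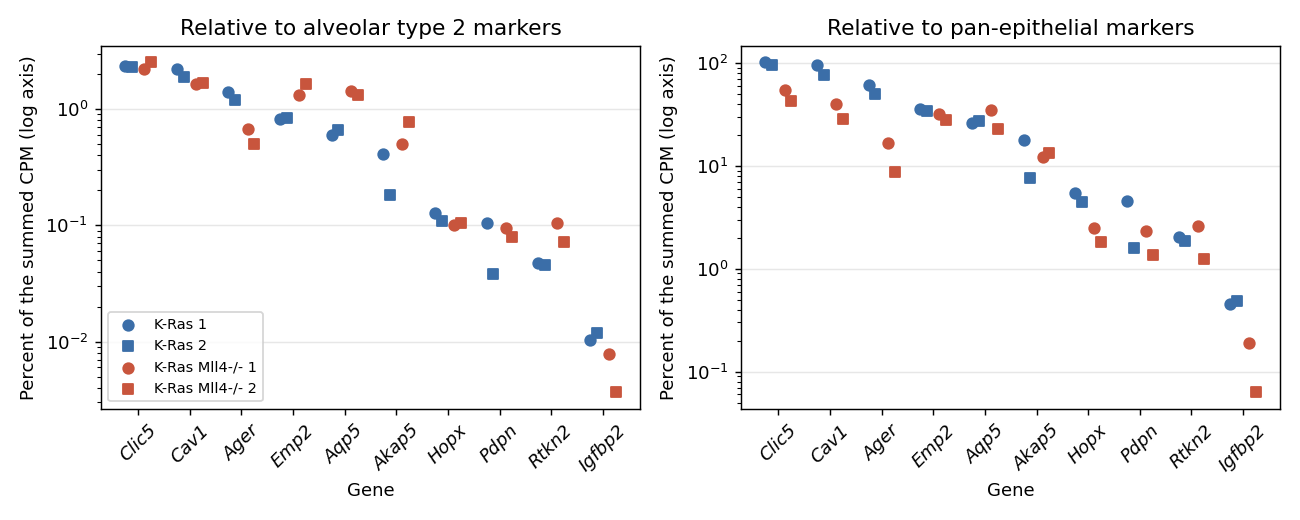
Each of the 10 genes as a percent of the summed CPM of the alveolar type 2 markers (left) and of the pan-epithelial markers (right), log axes, 1 point per sample. Ager, Igfbp2, Hopx and Cav1 are lower in both K-Ras Mll4-/- samples on both panels, as are 23.5% of all genes with the left divisor and 79.9% with the right. Aqp5 separates the groups on the left panel and overlaps on the right.

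Genes with the most similar pattern over the 4 samples were sought for the gene with the highest and the one with the lowest difference. Likeness was the Euclidean distance between log2 CPM profiles centred on their means, over 11905 genes with a mean of at least 5 CPM. Nearest to Ager were 6430548M08Rik, Shank3 and Npr1, at distances of 0.0419, 0.0472 and 0.0783. Npr1, the receptor of atrial natriuretic peptide, was at 162 and 207 CPM in K-Ras and 93.5 and 73.3 CPM in K-Ras Mll4-/- samples. Nearest to Akap5 were Hmga1, Angptl2 and Trim59, at 0.132, 0.142 and 0.151. Hmga1, a chromatin architectural protein gene, was at 5.17 and 3.96 CPM in K-Ras and 8.38 and 13.1 CPM in K-Ras Mll4-/- samples. Within the 10 genes, Hopx and Cav1 were the closest pair, at 0.111, and Aqp5 and Rtkn2 lay at 0.411. Profiles were not scaled, so genes that vary little lie close. Hopx and Cav1 had log2 fold changes of -0.14 and -0.25. With 4 samples many genes share a profile, so these distances are a description only.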

How the data were processed

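The authors deposited raw read counts per gene symbol, 1 file per sample, with 5 closing lines for reads given to no gene. CASAVA 1.4, STAR, HTSeq and the build mm9 are named in the submitters' processing notes; the annotation and strand setting are not given in the sources used here. Reads aligned to several places were tallied apart (31.5% to 36.7% of all reads), so near-identical copies are undercounted. Groups and replicate numbers come from the sample titles, and replicates differed beyond sampling noise.

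Counts were fitted over all 4 samples with edgeR 4.0.16 in R 4.3.3, using filterByExpr, TMM scaling and the robust quasi-likelihood test, with Benjamini-Hochberg adjustment over all 16001 genes tested and a threshold of 0.05. The SE is the log2 fold change over the square root of F. CPM are TMM-scaled, and mean ± SD covers 2 samples. Exact permutation tests were not run, since 2 samples against 2 allow no two-sided p under 0.333. Alternatives used DESeq2 1.42.0, limma 3.58.1 and offsets from mgcv 1.9.3. The fits were tested on simulated data. Lengths and GC are those of the longest coding GENCODE M21 transcript; promoter windows are from RefSeq. No library batch is labelled. The detection floor covers counting error only.

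The genes, gene lists and tests were chosen with earlier results of these data known. All 10 genes are named. Lists of up to 6 genes may be named in full, and from longer lists the 3 furthest from 0 in log2 fold change and the 2 most abundant, besides Kmt2d and the genes of likeness.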

Additional observations from a re-analysis of the deposited data

How the results depend on the processing

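Across the scalings, filters, tests, block and offsets and with single samples left out, the sign of the log2 fold change was stable for 8 of the 10 genes. Division by marker lists turned more signs, but it also moved the median of all genes tested. By the pan-epithelial markers Pdpn (-0.73), Rtkn2 (-0.04), Emp2 (-0.21) and Clic5 (-1.001) turned negative, each above the median gene at -1.13. By the endothelial markers Cav1 (0.45) and Hopx (0.56) turned positive, each below the median gene at 0.68. Other genes kept their sign, with Aqp5 at 0.12 and Akap5 at 0.002 by the pan-epithelial markers. Ager and Igfbp2 stayed at -0.42 and -0.30 by the endothelial markers. What turned the signs of the other genes was not tested. Leaving out single samples moved Clic5 from -0.21 (without K-Ras replicate 1) to 0.37 (without K-Ras replicate 2), with -0.04 without K-Ras Mll4-/- replicate 2, and Hopx from -0.32 (without K-Ras replicate 1) to 0.055 (without K-Ras replicate 2). The median of the 10 stayed between 0.18 and 0.31. The number of called members, 0 in the main comparison, was 3 with DESeq2, 3 with the likelihood ratio test, and 1 (Aqp5, adjusted p = 0.0419) with the replicate block together with GC and length offsets. Over all genes, 6 were called, against 44 without a count filter (42 higher, 2 lower), 1601 with DESeq2 (804 higher, 797 lower), 1503 with the likelihood ratio test, 0 with limma-voom (3228 at an unadjusted p under 0.05), 217 with the replicate block (199 higher, 18 lower) and 424 with block and offsets. Leaving out each sample gave 0 to 528 called genes, the 528 without K-Ras replicate 1 (110 higher, 418 lower, against 6 and 0 with all samples), and 0 called members each time. In those fits the lone sample is assumed to vary like the other group. The causes were not tested.

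The labels do not say what samples of the same number share; their deviations from the group means correlated at 0.213 across genes. The offsets and the divisors by marker lists were chosen after seeing the data. Igfbp2, at 37 to 159 reads, is the least precisely counted of the 10.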

Other observations

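The size of several differences depended on which samples were set against each other. For Akap5 the log2 ratio was 0.64 between the samples numbered 1 (K-Ras Mll4-/- over K-Ras) and 1.82 between those numbered 2. For Aqp5 the same ratios were 1.62 and 0.75, and for Rtkn2 1.52 and 0.41. Igfbp2 was at -0.05 and -1.94, and Pdpn at 0.23 and 0.79. Ager was at -0.68 and -1.51. Within the K-Ras group, 8 of the 10 genes were higher in sample 2 than in sample 1, with Pdpn and Akap5 the exceptions (log2 ratios of -0.82 and -0.56).

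The make-up of the 10-gene sum differed between the groups while the sum itself overlapped. It was 1956 and 2701 CPM in K-Ras and 2529 and 2709 CPM in K-Ras Mll4-/- samples. Ager made up 17.4% and 16.6% of it in K-Ras and 8.36% and 5.81% in K-Ras Mll4-/- samples, while Aqp5 made up 7.39% and 9.07% against 17.6% and 15.2%. Shares in CPM depend on transcript length, so they compare samples and not genes.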
